A study of Mus musculus with 29 samples.

Results

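ON bipolar cells are the retinal interneurons that depolarize when light increments reduce glutamate release from photoreceptors. The chromatin regions described here were chosen by their ATAC-seq peak calls: each lay in a peak of both ON bipolar cell (ON-BC) libraries and in no peak of either library of OFF bipolar cells (OFF-BC), rods, blue cones or green cones. This rule selected 10306 of 110715 regions of the accessibility table (9.31%), or 18.6% of the 55326 regions open in both ON-BC libraries. The state of the mixed bipolar population (pan-BC) was left free. A region is a window that reaches 100 bases to each side of its midpoint, and "open" and "closed" refer to peak calls, so that a closed region can still hold reads.

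ON-BC and OFF-BC were sorted from retinas of Otx2-GFP+/-; Grm6-YFP+/+ mice at postnatal days 42 to 48, in 2 ATAC-seq and 3 RNA-seq libraries each. All bipolar cells therefore came from mice with a GFP cassette in 1 copy of Otx2, a gene that is itself expressed in bipolar cells, and YFP was driven by a Grm6 promoter transgene. ON-BC were sorted once and OFF-BC sorted again for purity. Pan-BC libraries were of postnatal days 43 to 44 in ATAC-seq (2 libraries) and 44 to 47 in RNA-seq (3 libraries). Pan-BC RNA-seq libraries came from Otx2-GFP+/- mice. The sources differ on whether the mice of the pan-BC ATAC-seq libraries carried Grm6-YFP (the labels give it, the study's sample list does not). Rods (Nrl-eGFP), blue cones (photoreceptors of mice lacking Nrl, which take a blue cone-like state) and green cones (Opn1mw-GFP) were all of postnatal day 56 and came from an earlier study, so that cell class, age and study cannot be told apart in any comparison with them. Libraries pool the retinas of several animals, and p-values measure the spread between such pools. ATAC-seq libraries held 4176776 to 12345845 counted reads and RNA-seq libraries 12329548 to 26266746.

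At the photoreceptor synapse, ON bipolar cells sense glutamate with the metabotropic receptor mGluR6, encoded by Grm6, whose G-protein cascade holds the cation channel Trpm1 shut in darkness. OFF bipolar cells instead use ionotropic receptors such as the kainate receptor subunit Grik1. Regions of accessible chromatin away from promoters often act as enhancers, which factors such as the homeodomain protein OTX2 and the LIM-homeodomain protein ISL1 bind in these cells. In RNA-seq, the ON cascade genes summed to between 325849 and 343825 normalized counts in the ON-BC libraries and between 48384 and 73077 in the OFF-BC libraries, while the OFF type markers ranged from 3726 to 4219 in ON-BC libraries and from 61782 to 86707 in OFF-BC libraries, so that each population was higher in the markers of its own label.

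The sequences of 9 of the regions are given first, because their nearest genes include 4 genes of the ON cascade, Isl1 and genes with large differences in RNA between ON-BC and OFF-BC. They were read from the plus strand of the mouse assembly GRCm38, the build of the files, and capitals mark the motif words searched for (listed further on).
Isl1, chr13:116309664-116309864: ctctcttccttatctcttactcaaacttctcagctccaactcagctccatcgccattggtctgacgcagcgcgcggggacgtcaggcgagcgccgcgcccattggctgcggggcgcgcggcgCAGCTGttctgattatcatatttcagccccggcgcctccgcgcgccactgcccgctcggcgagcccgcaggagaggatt
Grm6, chr11:50850771-50850971: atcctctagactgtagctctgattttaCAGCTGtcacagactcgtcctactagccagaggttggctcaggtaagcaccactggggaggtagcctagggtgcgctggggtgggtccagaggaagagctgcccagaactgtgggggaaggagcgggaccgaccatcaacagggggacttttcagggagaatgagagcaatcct
Trpm1, chr7:64144286-64144486: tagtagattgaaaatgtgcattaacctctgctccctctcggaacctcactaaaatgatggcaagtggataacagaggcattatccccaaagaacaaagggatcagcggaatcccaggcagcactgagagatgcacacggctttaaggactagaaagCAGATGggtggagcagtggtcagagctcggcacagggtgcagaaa
Gpr179, chr11:97355531-97355731: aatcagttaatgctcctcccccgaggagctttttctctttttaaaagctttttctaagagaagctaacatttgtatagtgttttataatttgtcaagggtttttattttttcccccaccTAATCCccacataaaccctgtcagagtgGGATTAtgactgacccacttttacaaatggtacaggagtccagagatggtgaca
Nyx, chrX:13475430-13475630: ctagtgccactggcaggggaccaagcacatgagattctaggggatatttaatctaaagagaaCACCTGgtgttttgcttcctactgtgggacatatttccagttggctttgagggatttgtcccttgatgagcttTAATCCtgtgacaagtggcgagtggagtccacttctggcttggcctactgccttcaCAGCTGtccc
Tmem196, chr12:119960836-119961036: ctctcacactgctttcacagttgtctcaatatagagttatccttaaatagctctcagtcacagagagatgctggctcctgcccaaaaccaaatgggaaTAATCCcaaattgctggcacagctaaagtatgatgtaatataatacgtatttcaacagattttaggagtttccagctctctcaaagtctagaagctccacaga
A230077H06Rik, chr7:40834029-40834229: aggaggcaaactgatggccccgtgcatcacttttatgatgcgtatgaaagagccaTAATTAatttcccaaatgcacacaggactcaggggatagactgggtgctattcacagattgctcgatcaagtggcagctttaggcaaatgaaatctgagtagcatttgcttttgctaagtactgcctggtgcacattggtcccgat
Slit3, chr11:35222275-35222475: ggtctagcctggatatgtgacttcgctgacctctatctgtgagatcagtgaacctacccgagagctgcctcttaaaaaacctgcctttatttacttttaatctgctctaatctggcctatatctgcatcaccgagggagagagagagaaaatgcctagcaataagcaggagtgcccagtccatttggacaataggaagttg
Il1rapl2, chrX:137752267-137752467: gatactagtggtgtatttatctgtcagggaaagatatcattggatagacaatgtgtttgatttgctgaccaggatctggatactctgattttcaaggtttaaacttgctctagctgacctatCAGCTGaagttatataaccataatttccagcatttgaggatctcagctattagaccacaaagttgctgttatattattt
The Isl1 region spans the start of the gene. The Grm6, Nyx, Tmem196, Slit3 and Il1rapl2 regions lie in introns of these genes, and the Trpm1, Gpr179 and A230077H06Rik regions are intergenic. The region of Slit3 holds none of the words, and the region of Gpr179 holds the same K50 homeodomain word on both strands.

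The selected regions had a median normalized ATAC-seq count of 44.8 and 51.2 in the 2 libraries of ON-BC and of 8.08 and 7.79 in those of OFF-BC. The median was 0 in both rod libraries, 2.59 and 0.723 for blue cones, and 1.54 and 2.82 for green cones. These libraries chose the regions, and their values are a description with no test. OFF-BC held few reads rather than none: 1585 regions had no read in OFF-BC library 1 and 760 in library 2, while 6263 and 5587 had none in the rod libraries. Over the 24446 regions with no peak in any bipolar library, the median was 5.39 and 7.79 in OFF-BC and 2.99 and 2.93 in ON-BC. The OFF-BC medians in the selected regions lie near this OFF-BC level. The same 24446 regions held medians of 10.9 and 13.6 in rods and 13 to 16.9 in cones, so they are not an empty background. Whether OFF-BC counts in the selected regions exceed background was not tested. The median difference between ON-BC and OFF-BC was 2.68 on the log2(count + 1) scale, with quartiles of 1.91 and 3.6, and 374 regions (3.63%) differed by less than 1.

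**Figure D1:**
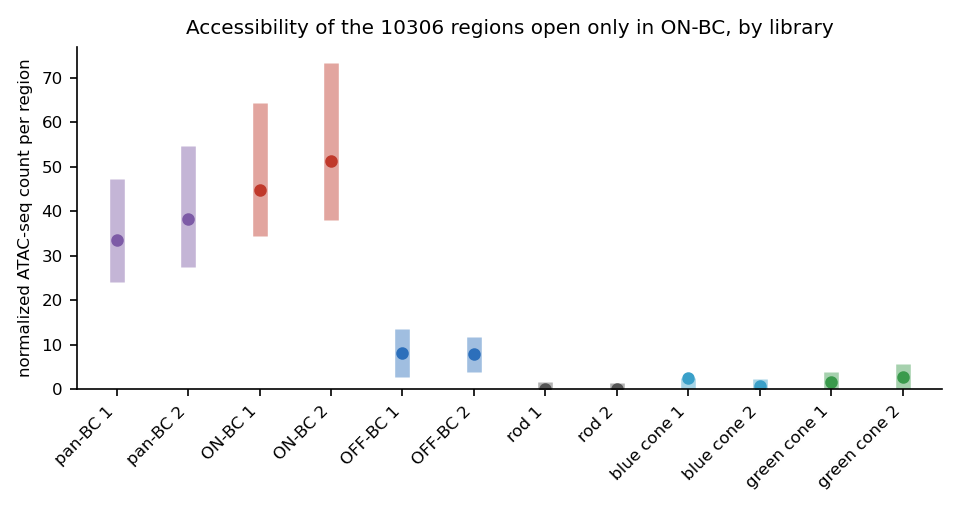
Normalized ATAC-seq count per region (y axis) in each of 12 libraries (x axis) over the 10306 regions open only in ON-BC; points are medians and bars run from the lower to the upper quartile. ON-BC medians of 44.8 and 51.2 and pan-BC medians of 33.6 and 38.2 lie above those of OFF-BC, rods and cones, which are 8.08 or lower.

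Regions just inside and just outside the rule differed by degree. The 100 regions with the weakest ON-BC peaks had a lowest -log10 q of 1.34 to 2.19, and median counts of 31 in ON-BC against 6.63 in OFF-BC. Another 3689 regions had a peak in 1 ON-BC library alone and met the rule otherwise, with medians of 28.1 in ON-BC against 8.05 in OFF-BC. A further 4429 regions were kept out by a peak in 1 of the OFF-BC libraries, and their OFF-BC median was 22.6 beside an ON-BC median of 48. Another 560 regions were kept out by a peak in 1 replicate of 1 or more photoreceptor types, with both replicates of none.

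The pan-BC libraries, which the rule did not use, hold both ON and OFF cells. Of the selected regions, 8564 (83.1%) lay in a peak of both pan-BC libraries, 1510 (14.7%) in a peak of 1 and 232 (2.25%) in none. The same share was 97.6% for the 8971 regions open in ON-BC and OFF-BC but closed in rods and cones, 28.1% for the 1672 regions open only in OFF-BC, and 94.4% over all regions open in ON-BC. Median pan-BC counts in the selected regions were 33.6 and 38.2, below those of ON-BC by a median of 0.48 on the log2 scale. The 2 libraries of double-sorted green cones, also unused by the rule, had a peak in 124 of the selected regions (1.2%), against 47.9% of all regions open in ON-BC. Without these regions 10182 would be left.

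The promoter of Isl1 was among the selected regions with the highest mean pan-BC counts, with 267 and 365 in pan-BC, 302 and 343 in ON-BC, only 13.5 and 17.5 in OFF-BC, and at most 6.92 in any rod or cone library. A site 107415 bp upstream of Sntb1, chr15:56014264-56014464, held 239 and 298 in pan-BC and 409 and 448 in ON-BC. These sites were picked for high pan-BC counts among regions that the rule chose. Both ON-BC and both pan-BC libraries therefore lay far above all others there.

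The Grm6 region held far lower counts in pan-BC than in ON-BC, unlike most selected regions. At chr11:50850771-50850971, 186 bp downstream of the Grm6 start, ON-BC held 303 and 384, pan-BC only 34.4 and 30.8, and OFF-BC 13.5 and 16.5. The ON-BC mean was 10.5 times the pan-BC mean, whereas across all selected regions 37 exceeded pan-BC by more than 2 on the log2 scale. A second selected region, chr11:50842559-50842759, 1107 bp upstream of Zfp879, held 384 and 356 in ON-BC against 110 and 45.6 in pan-BC. The promoter of Zfp879 itself, chr11:50841475-50841675, which is not selected, held 400 and 408 in ON-BC against 345 and 328 in OFF-BC against 114 and 89.5 in pan-BC. Since a Grm6 promoter drives YFP in the ON-BC and OFF-BC mice, reads of the transgene and of the endogenous locus cannot be told apart here, and it is not settled whether pan-BC mice carried it. Of the 37 regions, 27 lay on chromosomes 11, 15, 17 and 18 (73%), which hold 14.4% of the selected regions. These are the chromosomes with the most of the 37, so the shares only describe the counts that single them out. On chromosome 15, 2 regions near Cdh9 and Lrp12 had no read in either pan-BC library. The cause of these differences between ON-BC and pan-BC was not tested.

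The selected regions lay far from promoters. Only 160 (1.55%) fell within a promoter, taken as 1000 bp upstream to 100 bp downstream of a start site, against 14.9% of all regions, 23.8% of those open in ON-BC and 4.84% of those open only in OFF-BC. By annotation 5131 (49.8%) were intergenic, 4886 (47.4%) intronic, 133 (1.29%) in coding exons and 156 (1.51%) in other exons or UTRs. The median distance to the nearest transcription start site was 56853 bp, against 20510 bp over all regions and 45402 bp for regions shared by ON-BC and OFF-BC, and 3694 regions (35.8%) lay over 100 kb away. Their median GC content was 44.3%, against 50.2% over all regions. Chromosome 3 had the highest share of its regions selected (12.1%) and chromosome 11 the lowest of the autosomes (5.38%).

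**Figure D2:**
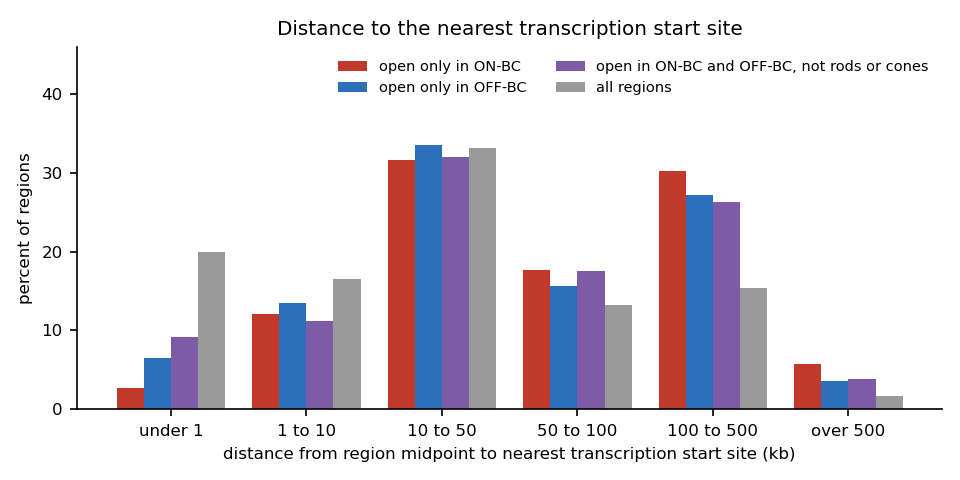
Percent of regions (y axis) in each class of distance from the region midpoint to the nearest transcription start site in kb (x axis), for 4 sets of regions shown by colour. Regions open only in ON-BC have the smallest share at starts and the largest share beyond 100 kb, 35.8% against 17.1% of all regions.

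The regions were spread widely, with another selected region within 10 kb for 1219 of them (11.8%). In bins of 500 kb, a measure chosen after the values were seen, 4014 bins held at least 1 region, with a median of 2, and 14 bins held 10 or more. One bin of chromosome 7 (chr7:40500001-41000000) held 11 selected regions of 23, assigned to 4933402C06Rik, A230077H06Rik, 4930433I11Rik and Vstm2b. A bin of chromosome 12 (chr12:92000001-92500000) held 10 of 18 regions, all nearest to Sel1l. On chromosome 10 (chr10:105000001-105500000), 11 of 27 regions were nearest to Tmtc2.

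Short sequence words were then counted in each window on both strands, as a description of what the regions share; a match is not a bound site. The K50 homeodomain word TAATCC, of the kind bound by OTX2 and CRX, was held by 28.4% of the selected regions, against 14% of regions shared by ON-BC and OFF-BC, 15.5% of those open only in OFF-BC, 16.8% of all open in ON-BC and 21.8% of all regions. All regions include those open in photoreceptors, where CRX acts. Among regions of 40% to 50% GC, the share was 29.4% in the selected regions and 30.3% over all regions, so that the difference from all regions was not kept. The difference from all regions open in ON-BC became smaller, as these held 25.6% at this GC content. Shared and OFF-only regions held 17.5% and 17.9%.

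ISL1-type words (CTAATGG or CTAATTG) were found in 6.98% of the selected regions, 3.68% of the shared regions, 2.99% of the OFF-only regions and 4.09% of all regions. MEF2-type words (TAAAAATA) were found in 6.05%, against 2.93%, 2.09% and 2.4%, and AP-1 words (TGACTCA or TGAGTCA) in 5.92%, against 3.29%, 2.33% and 4.88%. With GC between 40% and 50% the shares over the selected and all regions were 7.23% and 5.27% for ISL1-type, 5.41% and 3.24% for MEF2-type, and 6.01% and 5.57% for AP-1 words. Among the 2577 regions with the lowest pan-BC counts 5.82% held an ISL1-type word and 26% a K50 word, and among the 2576 with the highest 9.39% and 30.2%. Between the same groups, MEF2-type words went from 5.7% to 6.72%, while AP-1 words fell from 7.53% to 5.98%.

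Words of the CTCF core, the motif of insulator sites, went the other way. The letters searched were AGGGGGC as the first form, AGGTGGC as the second form, AGAGGGC as the third form and AGATGGC as the last form. They were found in 17.2% of the selected regions, 34.3% of the shared regions, 24.7% of the OFF-only regions and 28.6% of all regions. The share was 15.6% against 25.3% of all regions at 40% to 50% GC. Of the E-boxes, the words of basic helix-loop-helix factors, CAGCTG and CAGATG had shares close to one another in the bipolar sets. CAGCTG was held by 23.9% of the selected, 27.3% of the shared and 25.3% of the OFF-only regions, against 18.1% of all regions. CAGATG was held by 34.9%, 37.1% and 34%, against 22.4%. In the same order, the E-box CATATG was held by 4.99%, 4.39% and 5.38%, against 3.5%, and CAGGTG by 12.4%, 12.9% and 9.33%, against 15.2%. The NFI word TTGGCA was held by 14.2%, 13.5% and 15%, against 10.6%. The Q50 homeodomain word TAATTA was held by 4.86%, 4.26% and 7.6%, against 5.22%, and the nuclear receptor word CAAGGTCA by 0.961%, 1.06% and 1.5%, against 1.73%. No word contains another, though neighbouring words can share bases, and 1579 regions (15.3%) held none.

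**Figure D3:**
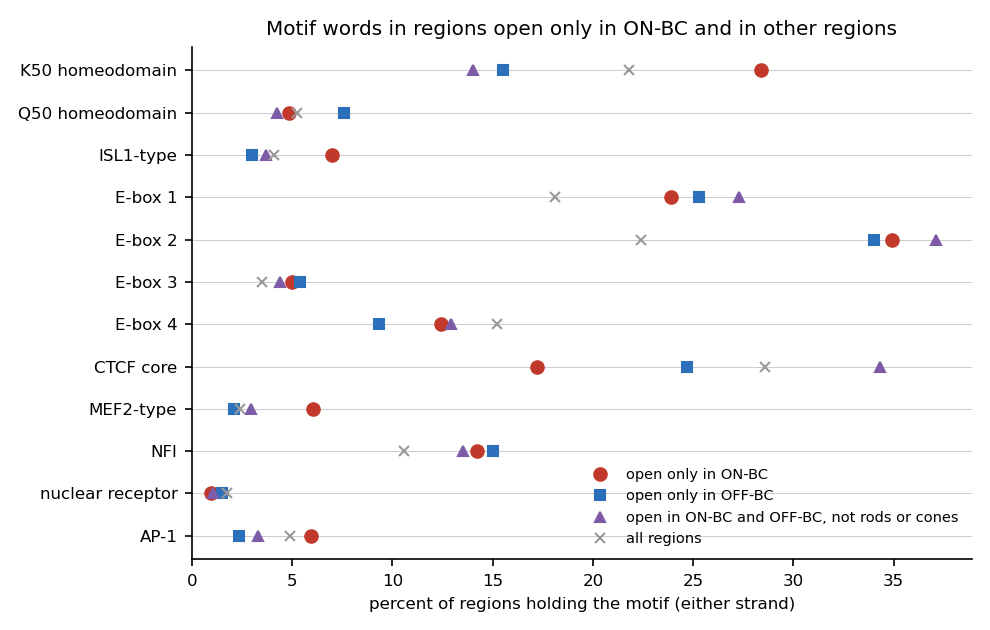
Percent of regions holding each motif word on either strand (x axis) for 12 motifs (y axis; the E-boxes are numbered 1 to 4 in the order they were named above), in 4 sets of regions shown by symbol. Regions open only in ON-BC lie to the right for the K50 (28.4%), ISL1-type (6.98%), MEF2-type (6.05%) and AP-1 (5.92%) words and to the left for the CTCF core (17.2%).

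RNA-seq, a measure independent of the peak calls, was used to ask how the nearest genes are expressed. The 10306 regions were nearest to 5505 genes by transcription start site, of which 4910 were found in the expression table and 3119 passed the filter on low counts. Genes were called with limma when they differed by more than 1 on the log2(normalized count + 1) scale at an adjusted p under 0.05. In bulk libraries, a different number of cells of a type and a different amount of RNA per cell cannot be told apart.

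Of the 3119 nearest genes tested, 246 (7.89%) were higher in ON-BC than OFF-BC, where 2.95% of all 14024 genes tested were called higher. In the other direction 176 (5.64%) were lower in ON-BC, where 3.60% of all genes were called lower. Thus genes near the regions were called above the background in both directions, and their median log2 difference of 0.03 was close to that of all genes (-0.02). Genes nearest to OFF-only regions tilted the other way, with 50 of 880 (5.68%) higher and 104 (11.8%) lower, and genes nearest to shared regions had 174 of 2857 (6.09%) higher and 193 (6.76%) lower. These sets of genes overlap and share the same RNA libraries. Read from the side of the genes, 246 of the 414 genes higher in ON-BC (59.4%) were nearest to at least 1 selected region, as were 176 of the 505 lower genes (34.9%) and 22.2% of all genes tested.

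The share called higher was larger for genes with more regions and for genes with a region within 10 kb. Among genes with 1 region, 103 of 1822 (5.65%) were higher in ON-BC and 102 (5.6%) lower. With 4 to 6 regions, 54 of 322 (16.8%) were higher and 20 (6.21%) lower, and with 7 or more, 15 of 77 (19.5%) were higher and 5 (6.49%) lower. By distance, 103 of 857 genes (12%) with a region within 10 kb were higher and 35 (4.08%) lower. A gene with several regions can fall in more than 1 distance class. Beyond that the share did not follow distance: 8.35% were higher at 10 to 50 kb, 9.87% at 50 to 100 kb and 8.5% over 100 kb, where 75 of 906 genes (8.28%) were lower. The 160 promoter regions gave the largest share, with 26 of the genes tested (25.7%) higher and 3 (2.97%) lower.

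**Figure D4:**
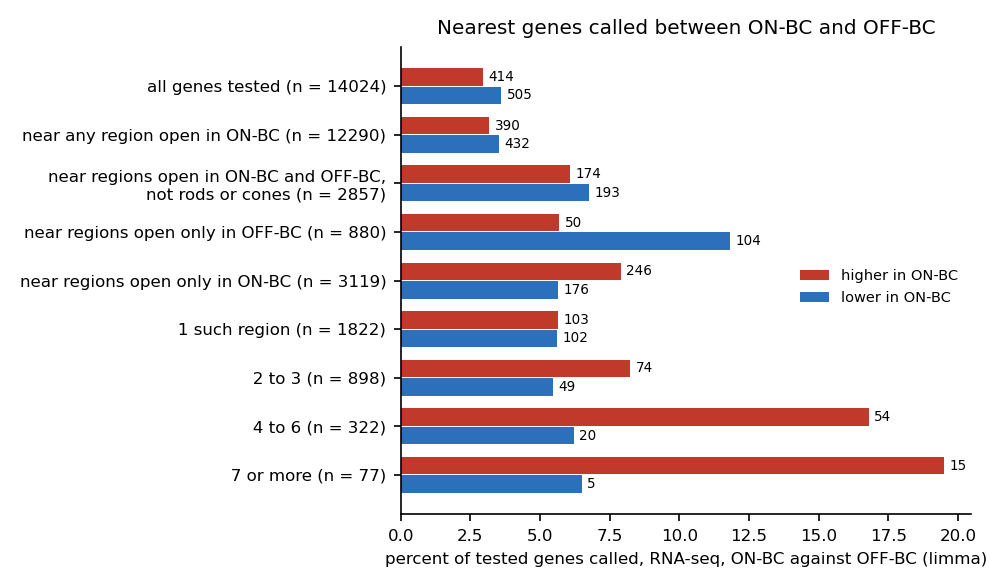
Percent of tested genes called higher (red) or lower (blue) in ON-BC than OFF-BC by RNA-seq (x axis), for all genes and for genes nearest to several sets of regions (y axis, with the number of genes tested); the numbers at the bars count the genes called. Genes near regions open only in ON-BC rise from 5.65% called higher with 1 region to 19.5% with 7 or more, while the share called lower stays between 5.46% and 6.49%.

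Against rods, 1232 of the nearest genes (39.5%) were higher in ON-BC, beside 26.2% of all genes, and 409 (13.1%) were lower, beside 15.6%. Against blue cones, 1063 (34.1%) were higher, beside 21.1% of all genes, and 397 (12.7%) lower, beside 13.7%. The share called higher also rose with the number of regions in these contrasts. Against rods it went from 31.8% with 1 region to 77.9% with 7 or more, and against blue cones from 26.9% to 70.1%. The 3 contrasts share the ON-BC libraries. Genes near shared regions had 45.5% and 38.6% higher than in rods and blue cones, both above the shares for regions open only in ON-BC.

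Markers of photoreceptors moved with the ON-BC to OFF-BC contrast. The 7 rod markers summed to between 20202 and 25438 in ON-BC and between 3580.3 and 17891 in OFF-BC, beside at least 1791939 in rods, and 6 of them were called higher in ON-BC. The 7 cone markers summed to between 5104 and 5877 in ON-BC and between 29869.9 and 103966 in OFF-BC, and 6 were called lower. None of either list was at 0 in ON-BC. Without genes over 16-fold higher in rods or blue cones than in the bipolar population where they were higher, an alternative chosen after seeing the data, 241 nearest genes were higher and 169 lower. Among markers of other retinal cells, 1 of 7 Müller glia, 1 of 5 tested amacrine and 1 of 5 microglia markers were called lower in ON-BC, 1 of 5 tested ganglion cell markers higher, and none of 4 horizontal and 2 endothelial markers tested was called by limma. The part of these cells in the counts above was not tested.

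Of the 14 genes of the ON cascade, 7 were nearest to 16 of the selected regions, and 4 of these 7 were called higher in ON-BC, with none lower. Of the other 7, with no selected region, 4 were called higher too (Gnb5, Gnao1, Gnb3 and Cacna1s), beside 2.95% of all genes. The median difference of the list was 2.39, beside -0.02 over all genes. Grm6 held 13260.4, 13835 and 13401 normalized counts in ON-BC against 145, 64.9 and 593 in OFF-BC, a log2 difference of 6.24 ± 0.55 (SE, 3 libraries each, limma adjusted p = 2.7e-06). All ON-BC libraries lay above all OFF-BC libraries, and OFF-BC library 3 was the highest of its group for Grm6, Isl1, Prkca and St18 alike.

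Trpm1 rose by 3.19 ± 0.23 (adjusted p = 2.61e-06). Its stronger region, chr7:64144286-64144486, lay 9449 bp upstream and held 125 and 141 in ON-BC, 89.6 and 120 in pan-BC and 10.8 and 17.5 in OFF-BC. The other lay in an intron at chr7:64192349-64192549. Gpr179, an orphan receptor that tethers regulators of G-protein signalling to mGluR6, rose by 3.87 ± 0.33 (adjusted p = 6.83e-06), and its region 3275 bp upstream held 49.3 and 54.2 in ON-BC against 9.43 and 13.6 in OFF-BC. Pcp2, a modulator of Go signalling, rose by 2.48 ± 0.25 (adjusted p = 0.000306). Its region overlaps its promoter (chr8:3625575-3625775), with 92.6 and 161 in ON-BC against 10.8 and 13.6 for OFF-BC and 25.9 and 23.1 for blue cones.

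Nyx, which encodes nyctalopin, the leucine-rich repeat protein that TRPM1 needs at the dendritic tip, had 3 regions. It held 653, 652 and 547 in ON-BC against 76, 114 and 131 in OFF-BC, without overlap, but its log2 difference of 2.55 ± 0.53 missed the threshold (adjusted p = 0.0676). It passed with edgeR and DESeq2 on the recovered reads. Rgs7 and its membrane anchor Rgs7bp had 4 regions each, all in their introns, and differences of 1.66 and 0.54 that were not called by limma. Rgs7 passed with edgeR and DESeq2.

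Of 44 transcription factors with a known place in bipolar or photoreceptor cells, 25 were nearest to 77 of the regions, beside 22.2% of all genes tested. Of the 25, 7 were called higher and 4 lower in ON-BC, beside 7.89% and 5.64% of all nearest genes. The whole list had 10 higher and 7 lower, beside 2.95% and 3.60% of all genes. Of these, Bhlhe23, Neurod2 and Esrrb (higher) and Irx5, Irx6 and Ebf1 (lower) had no selected region. The median over the list was 0.21. Isl1 had the most of the 77 regions, 10 of the 23 assigned to it. They run from 566200 bp downstream of the start, at chr13:115743388-115743588, to 205014 bp upstream, at chr13:116514602-116514802, and all are annotated as intergenic. Its RNA was 24419, 28015 and 26357 in ON-BC against 343, 162 and 1329 in OFF-BC, a log2 difference of 5.96 ± 0.58 (adjusted p = 8.04e-06). Pan-BC libraries held 24003, 21506 and 20848, just below ON-BC.

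The zinc finger factor St18 had 8 of 15 regions selected and rose by 5.28 ± 0.62 (adjusted p = 6.94e-05), and the LIM-only factor Lmo4, with 4 of 24, rose by 3.87 ± 0.25 (adjusted p = 3.73e-07). The homeobox gene Sebox had 1 region 1624 bp from its start and rose by 4.70 ± 0.33 (adjusted p = 3.63e-07). Prdm8 (2 regions, 2.84), Sox5 (2 regions, 2.90) and Mef2c (5 regions, 1.58) were also called higher. Mef2c was lower in ON-BC than in rods by a log2 difference of -3.58.

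Among the factors lower in ON-BC, Fezf2 fell by 7.29 and had 4 regions, Bhlhe22 fell by 4.25 with 1, Etv1 fell by 3.26 with 5 and Nfib fell by 1.70 with 1. An intronic region of Etv1, chr12:38854411-38854611, held 130 and 113 in ON-BC against 10.8 and 7.79 in OFF-BC, against RNA means of 6.45 in ON-BC against 69.2 in OFF-BC. Neurod1 (1 region, -0.16), Rorb (1, 0.56), Zfhx3 (2, 0.08), Zeb2 (1, 0.21) and Tcf4 (5, 0.66) were among the other 14 factors, none of them called by limma, whose differences ran from -2.78 (Fezf1) to 1.82 (Vsx1).

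Regions open only in ON-BC also lay near genes of OFF cells. Of 15 OFF type markers, 8 were nearest to 24 of the regions, beside 22.2% of all genes tested. Of the 8, 7 were called lower in ON-BC and none higher, beside 5.64% and 7.89% of all nearest genes. The whole list had 10 lower, beside 3.60% of all genes, and of these Neto1, Nnat and Esam had no selected region. These genes were listed as OFF markers, so their lower RNA is not a result about the regions. The list median was -5.69. Erbb4, a neuregulin receptor, had 7 such regions of its 17 and held 5.16, 3.92 and 1.03 in ON-BC against 298, 352 and 250.5 in OFF-BC, a log2 difference of -6.24 ± 0.44 (adjusted p = 2.2e-07). The intronic region chr1:68974984-68975184 held 143 and 141 in ON-BC, 68 and 82.1 in pan-BC and 8.08 and 3.89 in OFF-BC, opposite in order to the RNA. Nxph1 (8 of 20 regions) fell by 5.69, and Kcnip4, a potassium channel-interacting protein with 12 of 28 regions, fell by 3.97. Grik1 had 1 region 94304 bp from its start, with RNA of 458, 568 and 382 in ON-BC against 50164, 37690.0 and 28558 in OFF-BC. Vsx1, fixed on this list as an OFF marker, held 1049, 1028 and 847 in ON-BC against 175, 335 and 351 in OFF-BC, a difference of 1.82 that was not called by limma but passed with edgeR and DESeq2.

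Of 14 markers of ON types, 9 were nearest to 31 regions, beside 22.2% of all genes tested. Of the 9, 2 were called higher and 1 lower, beside 7.89% and 5.64% of all nearest genes. The whole list had 6 higher and 1 lower, beside 2.95% and 3.60% of all genes, with a median of 1.16. Prkca, the protein kinase C gene that marks rod bipolar cells, had 4 regions and rose by 5.71 ± 0.48 (adjusted p = 1.86e-06), and Vstm2b rose by 5.89 ± 0.58 (adjusted p = 9.58e-06). Kirrel3 fell by 2.97 although 1 of its 3 regions, chr9:34587415-34587615, held 125 and 98.1 in ON-BC against 0 and 2.92 in OFF-BC. Lrrtm1 (9 regions), Spock3 (6), Sox6 (4), Chrm2 (2), Syt2 (1) and Serpini1 (1) differed by 0.29, 1.43, -0.17, 0.90, -2.76 and -0.60 and were not called by limma, though Syt2 passed with edgeR and DESeq2. Lrrtm1 marks an ON bipolar type, BC5D, that the paper infers was left out of both the ON and the OFF sort. Its mean RNA count was 448 in pan-BC, against 94.7 in ON-BC and 79.8 in OFF-BC.

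At a pseudocount of 1, the genes with the largest rise among those near a selected region were Tmem196 (6.24), Grm6, A230077H06Rik (6.15), Slit3 (6.07), Il1rapl2 (6.06), Smoc2 (6.04), Ano3 (6.01), Isl1, Reln (5.91), Vstm2b, Cxcl12 (5.85) and Gnat3 (5.83). This order depends on the pseudocount where OFF-BC holds few counts: at 5, Tmem196 fell to 4.68 and Slit3 to 4.56, while Grm6 stood at 6.19 and Isl1 at 5.94. Tmem196 held 140.3, 220.5 and 126 in ON-BC against 3.35, 0 and 1.1 in OFF-BC, and 4 of its 7 regions were selected. Its intronic region chr12:119960836-119961036 held 163 and 160 in ON-BC, 97.6 and 137 in pan-BC and 0 and 3.89 in OFF-BC. Slit3, a guidance ligand, differed from rods by 6.66 but from blue cones by only 0.79, which was not called. Reln, the secreted protein reelin, held 6307, 7343 and 6735 in ON-BC against 106, 42 and 311 in OFF-BC. Gnat3, the G-protein subunit gustducin, had its region at its promoter (chr5:17962439-17962639), with 68.7 and 92.2 in ON-BC against 0 and 1.95 in OFF-BC. The largest falls were those of Cadps2 (-8.35), Tacr3 (-7.60), Opcml (-7.54), Fezf2 and Pde1a (-7.24), with 1, 1, 1, 4 and 3 regions.

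The genes with the most selected regions did not follow 1 direction in RNA. Dlg2, which encodes a synaptic scaffold protein, had 19 of its 75 regions selected and held 1369, 1415 and 1344 in ON-BC against 515, 551 and 444 in OFF-BC, a difference of 1.45 ± 0.28 that was not called in the fit of 15 libraries (adjusted p = 0.608) but was when only the ON-BC and OFF-BC libraries were fitted. Cdh9 (15 of 32), Celf4 (15 of 96), Map3k7 (15 of 48), Tenm3 (15 of 53) and Efna5 (13 of 54) differed by 1.46, -0.16, 0.33, -0.94 and -0.44 and were not called. Cntnap2, an adhesion protein of the neurexin family, had 14 of 52 regions and rose by 3.11 ± 0.33 (adjusted p = 0.000165). The sortilin-family receptor Sorcs3 had 13 of 28 and rose by 5.25 ± 0.69 (adjusted p = 0.000243), and the RNA 4933402C06Rik, with 12 of 26, held 33, 36.3 and 23.6 in ON-BC against 2.24, 0 and 0 in OFF-BC. Agbl1 had 13 of 26 regions and at most 1.03 normalized counts in any bipolar library, so it was not tested. Its region chr7:76322281-76322481 held 163 and 152 in ON-BC against 18.9 and 15.6 in OFF-BC.

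Beside the counts of 3 further lists, 22.2% of all genes tested were nearest to a selected region, and 7.89% and 5.64% of these nearest genes were called higher and lower. Of 52 adhesion genes, 41 were nearest to 192 regions, with 5 of the 41 called higher and 8 lower in ON-BC and a list median of -0.10. Lrrtm4, a synaptic leucine-rich repeat protein, had 12 of 20 regions selected and held 1383, 1765 and 1188 in ON-BC against 313, 416 and 305 in OFF-BC, a difference of 2.06 ± 0.99 that was not called by limma but passed with edgeR. Of 42 ion channel genes, 30 were nearest to 85 regions, 6 of them higher (among them Kcnt2, Cacna1e, Cacna2d3, Trpm1 and Ano3) and 5 lower (Kcnc2, Kcnh7, Kcnip4, Cacna2d1 and Trpm3), with a median of -0.07. Of 43 neurotransmitter receptor genes, 26 were nearest to 64 regions, 3 higher (Grin3a, Grm5 and Grm6) and 2 lower (Grik1 and Grik2), with a median of -0.14. Grm5, a metabotropic glutamate receptor, had 7 of 12 regions and rose by 2.91 ± 0.29 (adjusted p = 0.00011). The calcium channel gene Cacna1d (6 regions) differed by 0.10 and was not called.

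**Figure D5:**
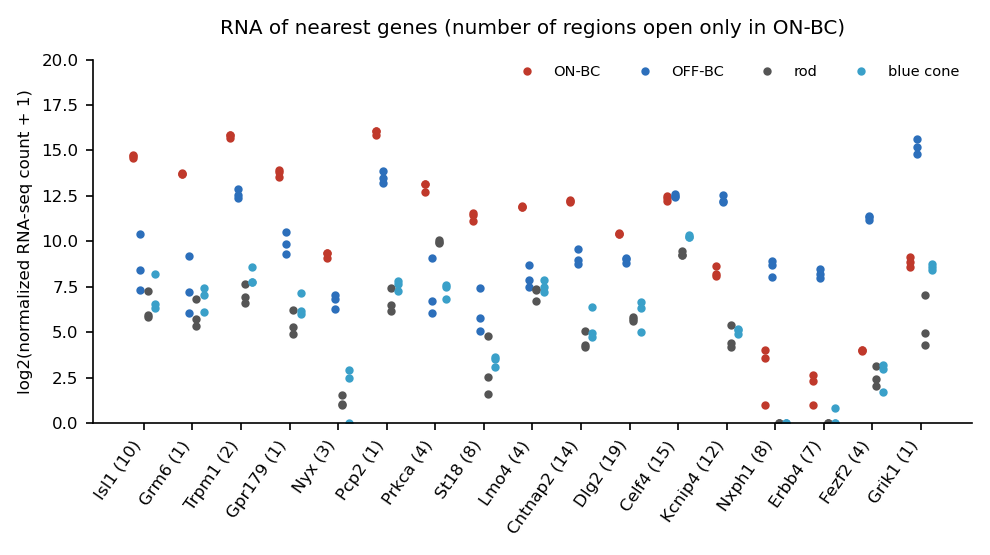
RNA-seq level as log2(normalized count + 1) (y axis) in each of 3 libraries of ON-BC, OFF-BC, rods and blue cones for 17 genes nearest to regions open only in ON-BC (x axis, with the number of such regions). The left genes lie above OFF-BC in ON-BC, Celf4 is alike in both (-0.16), and Kcnip4, Nxph1, Erbb4, Fezf2 and Grik1 at the right lie lower in ON-BC.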

How the data were processed

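ATAC-seq and RNA-seq of sorted mouse retinal cells were analysed from the authors' deposited tables. The submitters' processing notes name Bowtie2 2.2.5, MACS2 2.1.1, SAMtools 1.3, Picard 2.19.0, bedtools 2.24.0, HOMER 4.8, STAR 2.7.0d, HTSeq 1.9 and featureCounts, on mouse GRCm38, and the study's methods give other versions of some. The deposited count tables hold signal normalized by size factors by the authors, not raw counts. Each value above 0 (1212862 in ATAC-seq, 230384 in RNA-seq) was a whole multiple of 1 read to within 0.01, so whole reads were recovered for edgeR 4.0.16 and DESeq2 1.42.0, run as alternatives. The deposited peak lists give, per library from the authors' MACS2 calls, a score, a fold enrichment, -log10 p and q, and the summit distance.

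A region midpoint inside a peak was counted as open. Regions were assigned to the nearest of 31610 RefSeq start sites and motif words counted on both strands. RNA values were tested as log2(normalized count + 1) with limma 3.58.1 in 1 fit over 15 libraries, for differences beyond 1 at a Benjamini-Hochberg adjusted p under 0.05. The edgeR filter on low counts left 14024 genes, and 27 gene names turned into dates matched no gene. The test was tested on simulated data. Coordinates are 1-based. Genes were named by rule: the 12 largest rises and 5 largest falls near a region, the 10 genes with most regions, and list members with a region. Regions and lists were chosen with earlier results of these data known. Alternatives covered scaling, tool, filter, pseudocount, peak threshold, gene assignment and each replicate left out. A few genes and a sequence that these rules select are not reported here.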

Additional observations from a re-analysis of the deposited data

How the results depend on the processing

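Tested against no change rather than a difference beyond 1, the genes nearest to the regions called against OFF-BC were 685 higher and 502 lower, 858 were lower than in rods, and 1615 were higher and 887 lower than in blue cones. Against OFF-BC, edgeR gave 328 higher and 239 lower, and DESeq2 gave 267 higher. Leaving out 1 RNA-seq library at a time gave 199 to 262 higher and 139 to 194 lower. With peaks of only 1 ATAC-seq replicate used, the rule selected 13920 to 16880 regions. With a peak threshold of 5 on the -log10 q scale it selected 8334, and with any overlap of region and peak 10211. With the replicate block, a fit of the ON-BC and OFF-BC libraries alone gave 286 higher and 213 lower, and without it 284 and 205. Deviations of same-numbered libraries correlated at -0.0763, 0.2218 and -0.0649, and only library 2 correlated best with its own number. Same-numbered ON-BC and OFF-BC libraries have the same age in the labels, which do not say whether they share animals, so the numbers were not treated as pairs. With the block Cdh9 and Lhx4 were also called, which they were not in the same fit without it. Among named genes, the call for Nfib was lost without OFF-BC library 1, OFF-BC library 2 or ON-BC library 1. Of named genes not called in the fit of 15 libraries, Nyx, Rgs7, Vsx1 and Syt2 passed with edgeR and DESeq2, and Lrrtm4, Zfhx4 and Fezf1 with edgeR but not DESeq2. No named gene called in the fit of 15 libraries changed direction under the alternatives run. Small differences of genes not called, such as Zeb1, can change sign when 1 library is left out. The share of K50 words against all regions, at 40% to 50% GC, was 29.4% and 30.3%, an alternative chosen after seeing the data. Regions with few reads limit the peak calls: the median region held 6 and 8 reads in OFF-BC and 30 and 35 in ON-BC.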
